A study of Mus musculus with 6 samples.

Results

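The MYC, MAX and MXD network is a family of transcription factors, and the 10 genes described here are its MYC proteins (Myc and Mycn), the partner proteins Max and Mlx, the MXD antagonists (Mxd1, Mxi1, Mxd3 and Mxd4) and the antagonists Mnt and Mga. They were chosen by gene symbol from the 17173 genes of the authors' table, and all 10 had a row in it. The choice used none of their values, but it was made with earlier results of these data known. Counts per library could be recovered for all 10, and all 10 passed the filter on low values (a mean of at least 10 normalized counts). RNA had been extracted from bone marrow of mice described as a multiple myeloma model, and sequenced as 3 control libraries and 3 with the label Che-1 silencing (below, Che-1-labelled). The genotype label reads control or Che-1 silencing, all 6 libraries carry the source name VkCHE mice, and the labels used here do not say what VkCHE stands for, name no transgene, promoter, strain or age, and do not state that the myeloma was driven by MYC. They also do not say whether the replicates came from separate mice. A p-value here therefore sets a group difference against a spread among these libraries, which technical variation may set in part.

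The proteins of this network bind DNA in pairs. MAX is the shared partner: paired with MYC or MYCN it activates genes of cell growth and division, and paired with an MXD protein, MNT or MGA it occupies the same sites and represses them. MXD proteins and MNT recruit the SIN3 corepressor with its histone deacetylases, MGA is part of a polycomb repressive complex, and MLX is a second partner that pairs with MNT, some MXD proteins and the nutrient sensors MLXIP and MLXIPL. In the B cell lineage MYC is switched on in activated and germinal centre B cells, is repressed as plasma cells form, and is active again in much of multiple myeloma.

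The DNA site that these pairs prefer is the E-box CACGTG. RefSeq promoter windows (build GRCm38.p6, from 250 bases before to 50 bases after the annotated start) were matched by symbol for 9 of the 10 genes, and Myc was the member with no entry. The sequence data have no role in the expression values below and come from another build than the mm9 named in the submitters' processing notes. The letters CACGTG, which read the same on both strands, occurred in the windows of 4 members, Max, Mlx, Mxd4 and Mnt. They were not found in the windows of Mga, Mxd1, Mxd3, Mycn and Mxi1. Of the 27025 genes with a window, 8.09% had these letters in at least 1, and 7.15% of the 32851 windows held them. The 4 windows are printed 5′ to 3′ on the strand of the gene with the E-box in capitals, since they show where the network's own site lies at the start of its members. The Max window is chr12:76962199-76962498 on the minus strand, that of Mlx chr11:101087040-101087339 on the plus strand, that of Mnt chr11:74830674-74830973 on the plus strand and that of Mxd4 chr5:34187661-34187960 on the minus strand.
Max: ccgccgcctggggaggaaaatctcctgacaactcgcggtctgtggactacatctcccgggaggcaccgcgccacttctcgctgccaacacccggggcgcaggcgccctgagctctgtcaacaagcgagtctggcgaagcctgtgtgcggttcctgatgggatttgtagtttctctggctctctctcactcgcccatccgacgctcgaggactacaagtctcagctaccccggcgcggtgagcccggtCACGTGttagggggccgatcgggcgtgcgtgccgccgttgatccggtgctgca
Mlx: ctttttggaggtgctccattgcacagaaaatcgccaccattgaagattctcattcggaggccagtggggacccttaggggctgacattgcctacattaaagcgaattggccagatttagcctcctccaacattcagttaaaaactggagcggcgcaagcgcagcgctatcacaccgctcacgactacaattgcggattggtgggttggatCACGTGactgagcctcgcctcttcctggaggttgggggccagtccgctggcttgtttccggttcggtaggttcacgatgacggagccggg
Mnt: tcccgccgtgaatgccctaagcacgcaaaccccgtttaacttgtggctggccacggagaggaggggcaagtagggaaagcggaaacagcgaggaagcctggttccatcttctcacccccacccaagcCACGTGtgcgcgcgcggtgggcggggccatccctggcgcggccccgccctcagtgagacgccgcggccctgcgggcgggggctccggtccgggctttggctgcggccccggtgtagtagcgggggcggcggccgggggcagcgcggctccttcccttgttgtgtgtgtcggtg
Mxd4: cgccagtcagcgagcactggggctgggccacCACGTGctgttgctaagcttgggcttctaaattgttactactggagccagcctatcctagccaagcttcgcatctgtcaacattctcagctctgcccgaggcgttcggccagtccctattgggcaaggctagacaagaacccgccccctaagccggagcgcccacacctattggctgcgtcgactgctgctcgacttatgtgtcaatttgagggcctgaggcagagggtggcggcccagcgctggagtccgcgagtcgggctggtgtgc
In Max the E-box spans the annotated start itself. Its centre lies 37 bases before the start in Mlx, 120 bases before it in Mnt and 216 bases before it in Mxd4. A match is a stretch of letters and not a measured binding site.

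Levels were compared on 2 scales. The authors had divided gene counts by size factors from ERCC spike-in RNAs added to every library (the spike-in scale), and levels were also set against the median tested gene of each library (the relative scale). The libraries held between 11317166 and 24899535 recovered gene reads, and the network genes together had a summed RPM (reads per 1e6 recovered gene reads) of 893 to 954 among the control libraries and 742 to 829 in the Che-1-labelled ones. The median gene had 236 to 387 normalized counts among the control libraries and 548 to 1330.09 in the Che-1-labelled ones, so most genes lay higher per spike-in there. Aatf, which encodes Che-1, was not lower in the Che-1-labelled libraries, at 896, 396 and 421 normalized counts in controls 1, 2 and 3 and 1986, 3808 and 1223 in Che-1-labelled replicates 1, 2 and 3. On the relative scale Aatf stood at 1.21, 0.74 and 0.67 log2 units among the control libraries and at 1.31, 1.52 and 1.16 in the others, with overlap. That difference was 0.45 (SE 0.19, limma adjusted p = 0.143). Since Aatf was not lower on either scale, the text speaks of Che-1-labelled libraries. Whether Che-1 was silenced in a given cell type was not tested. In the authors' deposited table Xist had means of 5.64 among the control libraries and 68685.1 in the others, and the Y-linked Ddx3y 2099 and 0, so the groups cannot be told apart from a difference of sex. Genes that mark other cell types moved too, and their part in the results below was not tested. The summed RPM of 8 germinal centre B cell markers was 115 to 158 in the control libraries, 3552 and 3141 in Che-1-labelled replicates 1 and 2, and 244 in replicate 3. In the same order the 6 recovered cell division markers ran from 183 to 393, then 739, 645 and 266, and the 8 neutrophil markers from 355 to 899.7, then 48.4, 176 and 905. Red cell markers (7 recovered) ran from 578 to 1487 among the control libraries and stood at 63.9, 141 and 452 in the others. The globin genes Hbb-b1 and Hba-a1, defining markers of red cells in marrow, had at most 1 and 8 reads in any library. Slc4a1, a further red cell marker, was not recovered and is missing from that sum. Its means in the authors' deposited table were 15010 normalized counts in the control and 6417 in the Che-1-labelled libraries. The 7 recovered plasma cell markers stood at 541 to 823 and at 651, 628 and 1079, with reads in every library. The RPM of 6 mature B cell markers was 2644 to 3025 and then 3540.47, 3663 and 2416, that of 7 T cell markers 432 to 515 and then 561, 523 and 459, and that of 7 monocyte markers 902 to 1861 and then 1163, 1258 and 1943. In each of these sums control replicates 2 and 3 lay nearer to each other than to control replicate 1. Red cell markers had 1487, 578 and 585 in controls 1, 2 and 3, and neutrophil markers 355, 899.7 and 877. Whether control replicates 2 and 3 come from separate mice is not stated and was not tested. Fits with them summed into 1 library are given below. In bulk RNA fewer cells of a type and less RNA per cell cannot be told apart.

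Per spike-in, 7 of the 10 network genes rose in the Che-1-labelled libraries and none fell (limma, adjusted p of at most 0.05). The 7 were Myc, Max, Mlx, Mxd3, Mxd4, Mnt and Mga, while Mycn, Mxd1 and Mxi1 did not pass. A rise on this scale was the common result, since 66.7% of the 14604 genes tested were called higher and 0.746% lower, and the share of the network genes lies near that background. The median log2 difference of the 10 genes was 1.48, beside 1.54 over all genes tested. In 4 of the 10, Max, Mlx, Mxd4 and Mga, all 3 Che-1-labelled libraries lay above all 3 control libraries, where 68.0% of all genes did. The SEs here rest on the spread that genes of similar level have in common, and not on that of each gene alone. When limma took the spread of each gene alone, 0 of the 10 passed, as for all but 0.0274% of genes, and 4 had an unadjusted p under 0.05 (58.0% of genes), while edgeR called 7 of the 10 and 69.0% of genes higher. The count was 2 (Max and Mxd3) without control replicate 2 or 3 or with control replicates 2 and 3 summed into 1. It was 3 without Che-1-labelled replicate 1 and 4 without Che-1-labelled replicate 2. Over all genes the number called higher fell too, from 9745 with all libraries. It was 3223 without control replicate 2, 3536 without control replicate 3 and 3451 with both summed. Without Che-1-labelled replicate 1 it was 5649 and without replicate 2 it was 6042. Between 14414 and 14667 genes were tested in these fits.

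Relative to the median gene the network genes had no common direction. Of the 10 genes 5 had a positive and 5 a negative difference, where 50.8% of all genes had a positive one, and the median was -0.05, beside 0.015 over all genes tested. None passed the threshold (limma, lowest adjusted p = 0.0986, for Mxi1), as was so for all but 0.0274% of the genes tested. At an unadjusted p under 0.05 there were 4 of the 10, Mycn, Max, Mxd1 and Mxi1, where 35.1% of all genes had one, and edgeR called 0 of the 10 as well (0.0274% of genes), with 3 at an unadjusted p under 0.05 (34.7% of genes). DESeq2 called Max higher and Mxi1 lower, in a test that called 27.2% of all genes. Max and Mlx lay above every control library and Mxd1, Mxi1 and Mga below, together 5 of 10 genes without overlap against 40.2% of all genes, 20.5% above and 19.7% below. These counts depended on Che-1-labelled replicate 3. With that library left out Max, Mlx and Mxd3 were higher and Mycn, Mxd1 and Mxi1 lower, 6 of the 10, where 52.9% of all genes tested passed.

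**Figure D1:**
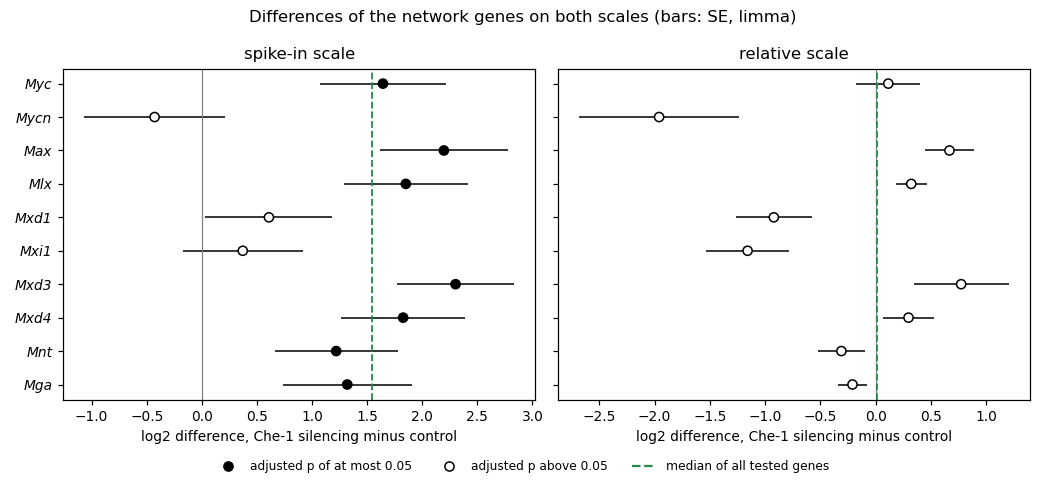
Log2 difference (Che-1 silencing minus control) of each network gene with its SE from limma, on the spike-in scale (left) and relative to the median gene (right), with filled points for an adjusted p of at most 0.05. On the left 7 points are filled and most lie around the all-gene median of 1.54, and on the right all are open and run from -1.96 (Mycn) to 0.77 (Mxd3).

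Myc, the founding member of the network and a driver of ribosome production and cell growth, rose per spike-in by about as much as the median gene (1.54 log2 units). It stood at 1284, 421 and 444 normalized counts in controls 1, 2 and 3 and at 2180.05, 3149.95 and 1069 in Che-1-labelled replicates 1, 2 and 3. Control replicate 1 lay above Che-1-labelled replicate 3, so the groups overlapped. On the spike-in scale Myc was 1.64 log2 units higher (SE 0.57, limma adjusted p = 0.0090), a ratio of the group means of 2.98. That call ended without control replicate 2 (limma adjusted p = 0.118), control replicate 3 (0.119), Che-1-labelled replicate 1 (0.0787) or Che-1-labelled replicate 2 (0.0824). On the relative scale Myc stood at 1.73, 0.83 and 0.75 log2 units among the control libraries and at 1.44, 1.24 and 0.96 in the others. The relative difference was 0.11 (SE 0.29, limma adjusted p = 0.781), and it turned to -0.057 when libraries were scaled to total counts, which moved the median of all genes by -0.17. Control replicate 1 held the highest relative level of Myc of all 6 libraries, and without it the difference was 0.43 (limma adjusted p = 0.171).

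Mycn, the paralog best known from neural and embryonic cells, was the least abundant member and the one with the lowest relative difference. It had 22, 82 and 121 reads in controls 1, 2 and 3 and 12, 13 and 38 in Che-1-labelled replicates 1, 2 and 3. These came to 25.7, 38.5 and 57.4 normalized counts among the control libraries and to 14.8, 31.2 and 48.8 in the others, and the groups overlapped. On the spike-in scale the difference was -0.43 (SE 0.64, limma adjusted p = 0.545), a scale on which 93.9% of all genes had a positive one. Relative to the median gene Mycn stood at -3.86, -2.58 and -2.18 among the control libraries and at -5.67, -5.37 and -3.46 in the others. Che-1-labelled replicates 1 and 2 held the lowest levels, while replicate 3 lay within the control range. The relative difference was -1.96 (SE 0.72, limma adjusted p = 0.117), lower than in all but 3.10% of the genes tested, and -2.64 without Che-1-labelled replicate 3 (limma adjusted p = 0.0106). A count of 12 or 13 reads limits the precision of these values.

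Max, the obligate partner of MYC and of its antagonists, was the member with the highest level per kilobase and had one of the larger differences. It stood at 1377, 759 and 853 normalized counts in controls 1, 2 and 3 and at 5431, 7652 and 2070.46 in the Che-1-labelled libraries. All 3 of these lay above all 3 control libraries. The spike-in difference was 2.20 log2 units (SE 0.58, limma adjusted p = 0.0010), and Max passed with each single library left out. On the relative scale its levels were 1.83, 1.68 and 1.69 among the control libraries and 2.76, 2.52 and 1.91 in the others, which again did not overlap. The relative difference of 0.67 (SE 0.22) did not pass (limma adjusted p = 0.102). It was 0.91 without Che-1-labelled replicate 3 (limma adjusted p = 0.0024), and DESeq2 called it with all libraries (0.68, DESeq2 adjusted p = 0.0321), in a range of adjusted p over the relative alternatives from 0.0024 to 0.293.

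Mlx, the second partner, moved in the same direction by less. It had 592, 372 and 439.6 normalized counts among the control libraries and 1696, 2867 and 939 in the Che-1-labelled ones, without overlap. The spike-in difference was 1.85 (SE 0.56, limma adjusted p = 0.0035), and it did not pass without control replicate 2 (limma adjusted p = 0.0617) or 3 (0.0553). The relative levels of Mlx stood at 0.61, 0.65 and 0.73 among the control libraries and at 1.08, 1.11 and 0.77 in the others, a difference of 0.32 (SE 0.14, limma adjusted p = 0.154). In the GENCODE M21 annotation 385 exon bases of Mlx overlap Psmc3ip on the opposite strand, and whether the counting used strand is not given in the sources used here. Reads of both genes may therefore be mixed. Psmc3ip itself was lower in level, at 79.8 and 438 normalized counts as means of the control and the other libraries. The glucose-sensing partner Mlxip had 1272 to 2284 normalized counts among the control libraries and 2532 to 4266 in the others, a relative difference of -0.62 (SE 0.17, limma adjusted p = 0.0839), with all 3 Che-1-labelled libraries below the control libraries. Mlxipl was close to absent, with 2 to 7 reads in each library, and was not tested. Mycl1, the third MYC paralog, stood at 151 to 180 normalized counts among the control libraries and 152 to 307 in the others, a relative difference of -1.06 (SE 0.40, limma adjusted p = 0.121).

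**Figure D2:**
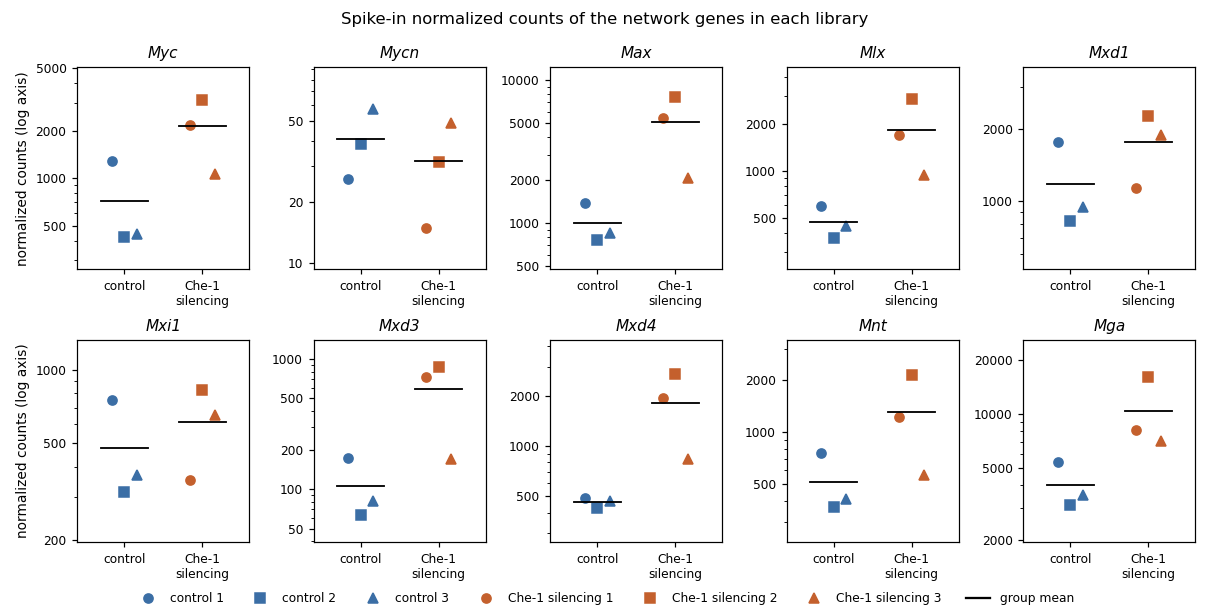
Spike-in normalized counts of each network gene in each library on log axes, with a marker for each replicate number and a line at the group mean. Max, Mlx, Mxd4 and Mga show no overlap between the groups. Of the genes that do overlap, Myc, Mxd3 and Mnt passed the test and Mycn, Mxd1 and Mxi1 did not.

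The MXD antagonists did not move together. Mxd1, which is induced when myeloid cells mature, and Mxi1, a brake on MYC in many tissues, lay below their own control levels on the relative scale in Che-1-labelled replicates 1 and 2. Mxd3, the member known from dividing cells in S phase, and Mxd4, known from resting and differentiating cells, lay above theirs in the same libraries. Mxd1 had 1771, 824 and 938 normalized counts in controls 1, 2 and 3 and 1129, 2269 and 1896 in the Che-1-labelled libraries, with overlap. The spike-in difference was 0.61 (SE 0.58, limma adjusted p = 0.336). Its relative levels were 2.19, 1.80 and 1.82 among the control libraries and 0.49, 0.77 and 1.79 in the others. Che-1-labelled replicate 3 lay just under the control range and replicates 1 and 2 far under it. The relative difference was -0.92 (SE 0.34, limma adjusted p = 0.118), and -1.31 without Che-1-labelled replicate 3 (limma adjusted p = 0.0026).

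Mxi1 followed the same course. It had 750.1, 314 and 371 normalized counts among the control libraries and 352, 828 and 651 in the others, a spike-in difference of 0.37 (SE 0.55, limma adjusted p = 0.541). Relative to the median gene it stood at 0.95, 0.41 and 0.49 among the control libraries and at -1.19, -0.68 and 0.25 in the Che-1-labelled ones. All 3 of the latter were lower than all 3 of the former, and Che-1-labelled replicate 3 was again the nearest to the control libraries. The relative difference of -1.16 (SE 0.38) had the lowest adjusted p of the 10 genes (limma adjusted p = 0.0986). It was -1.55 without Che-1-labelled replicate 3 (limma adjusted p = 0.0043) and -1.07 by DESeq2 (DESeq2 adjusted p = 0.0453), in a range over the relative alternatives from 0.0043 to 0.280.

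Mxd3 showed the reverse. It had 173, 63.0 and 80.7 normalized counts among the control libraries and 732, 874 and 169.5 in the Che-1-labelled ones. Replicate 3 lay just under control replicate 1, so the groups overlapped by 1 library on each side. The spike-in difference of 2.30 (SE 0.53, limma adjusted p = 2.0e-04) was the highest of the 10 genes, and it passed with each single library left out. On the relative scale Mxd3 stood at -1.16, -1.89 and -1.70 among the control libraries and at -0.13, -0.61 and -1.69 in the others. The difference was 0.77 (SE 0.43, limma adjusted p = 0.232), and 1.21 without Che-1-labelled replicate 3 (limma adjusted p = 0.0148). In GENCODE M21 105 exon bases of Mxd3 overlap Prelid1 on the opposite strand, a gene with means of 1446 and 6709 normalized counts, so the reads of Mxd3 are uncertain in the same way as those of Mlx.

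Mxd4 had no overlap between the groups in counts. It stood at 488, 426 and 471 normalized counts among the control libraries and at 1936, 2711 and 836 in the others. The spike-in difference was 1.83 (SE 0.56, limma adjusted p = 0.0038), and it did not pass without control replicate 2 (limma adjusted p = 0.0547), control replicate 3 (0.0532) or Che-1-labelled replicate 1 (0.0506). Its relative levels were 0.33, 0.85 and 0.83 among the control libraries and 1.27, 1.03 and 0.61 in the others, which overlapped. The relative difference was 0.30 (SE 0.23, limma adjusted p = 0.367). On the opposite strand 514 exon bases overlap a gene model, Gm42846, that had no row in the table used here.

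**Figure D3:**
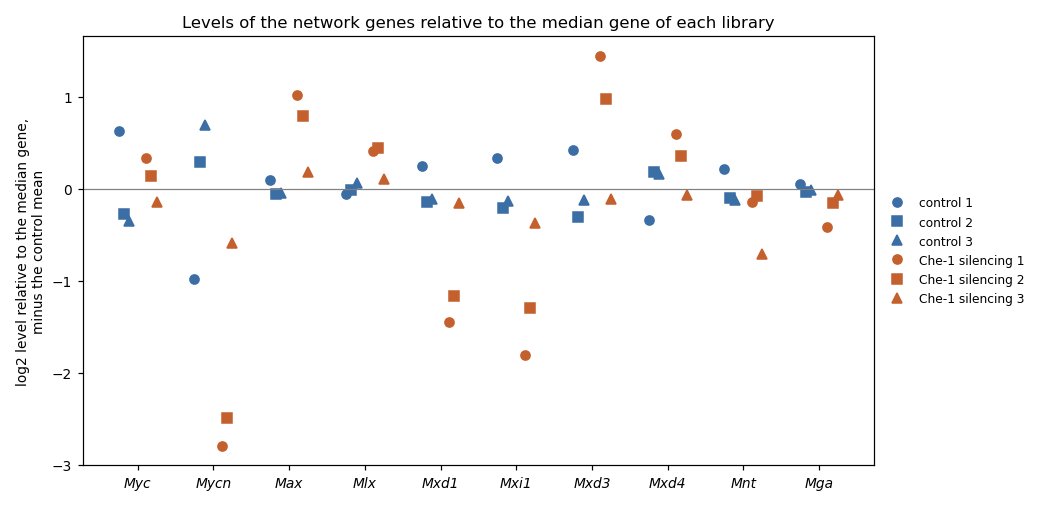
Log2 level of each network gene relative to the median gene of the library, minus the mean of the control libraries, for the 3 control and the 3 Che-1 silencing libraries. Che-1-labelled replicates 1 and 2 lie furthest from 0 in Mycn, Mxd1, Mxi1, Max and Mxd3, and replicate 3 lies nearer to the control libraries.

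Mnt and Mga, the 2 large antagonists, had small differences on the relative scale. MNT is expressed in most cells whether or not they divide, and MGA joins MAX to polycomb proteins. Mnt had 759.5, 369.9 and 409 normalized counts among the control libraries and 1219, 2119.97 and 564 in the others, with overlap. Its spike-in difference of 1.22 (SE 0.56) passed narrowly (limma adjusted p = 0.0442), and did not pass without Che-1-labelled replicate 1 or 2 or without control replicate 2 or 3. Its level against the median gene was 0.97, 0.65 and 0.63 among the control libraries and at 0.60, 0.67 and 0.04 in the others, a difference of -0.31 (SE 0.21, limma adjusted p = 0.311). Here Che-1-labelled replicate 3 was the library that stood apart.

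Mga had the most reads of the 10 genes, 4622 to 7445 in each library. Its levels were 5409, 3099.98 and 3535 normalized counts among the control libraries and 8109, 16109.9 and 7062 in the others, without overlap. The spike-in difference was 1.32 (SE 0.58, limma adjusted p = 0.0371), a call that ended in the same 4 cases as that of Mnt. Relative to the median gene Mga was steady, at 3.80, 3.71 and 3.74 among the control libraries and 3.34, 3.60 and 3.68 in the others. All 3 of the latter lay just below the former, by 0.21 log2 units on average (-0.21, SE 0.13, limma adjusted p = 0.277).

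In the authors' deposited table the same genes had adjusted p-values from 0.186 (Max, Mlx, Mxd3 and Mxd4) to 0.796 (Mxi1), and Myc had 0.188. None was at or under 0.05 there, as for all but 0.0773% of the genes with a value in that table.

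Set against each other within a library, where no scaling enters, Max lay higher against Mxd1 and Mxi1, while Mxd3 and Mxd4 had positive differences of their own. The log2 ratio of Max to Mxi1 was 0.88, 1.27 and 1.197 in controls 1, 2 and 3 and 3.95, 3.21 and 1.67 in Che-1-labelled replicates 1, 2 and 3. The ratio of Max to Mxd1 was -0.36, -0.12 and -0.14 and then 2.27, 1.75 and 0.13 in the same order. In both, all 3 Che-1-labelled libraries lay above the control libraries, with replicate 3 the nearest to them. The ratio of Myc to Max ran the other way, at -0.10, -0.85 and -0.94 among the control libraries and -1.32, -1.28 and -0.95 in the others. The ratio of Myc to Mxi1 was 0.77, 0.42 and 0.26 among the control libraries and 2.63, 1.93 and 0.71 in the others, so control replicate 1 overlapped Che-1-labelled replicate 3. The ratio of Myc to Mnt spanned 0.12 to 0.76 and 0.57 to 0.92 in the 2 groups, which overlapped. These pairs were picked with the values known and carry no test.

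Levels between genes were compared per kilobase of exon (GENCODE M21 exon lengths, which may differ from the gene models the authors counted on). As means over the control libraries Max came first with 509 ± 170.3 normalized counts per kilobase (SD, n = 3), followed by Myc (293 ± 201), Mga (288 ± 88.1), Mxd1 (252 ± 111) and Mlx (235 ± 56.8). The control libraries of neighbours in this order overlapped, from Max (387 to 703) and Myc (172 to 525) down to Mlx, whereas the lowest value of Mlx (187) lay above the highest of Mxd4 (126). Mxd4 (119 ± 8.27), Mnt (112 ± 46.7), Mxd3 (79.6 ± 44.6) and Mxi1 (71.9 ± 35.6) followed with overlapping libraries, and Mycn came last at 14.5 ± 5.69, below Mxi1 in every library. In the Che-1-labelled libraries Max (2580 ± 1435) was again first and Mycn (11.3 ± 6.06) last. The order between them changed, with Mxd4 (471 ± 243) and Mxd3 (446 ± 281) ahead of Mxd1 (378 ± 125), though the libraries of these 3 overlapped.

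Shares were taken among the 4 MXD genes and Mnt. Of the summed level per kilobase of Mxd1, Mxi1, Mxd3, Mxd4 and Mnt, Mxd1 made up 41.5%, 38.3% and 38.1% in controls 1, 2 and 3 and 15.02%, 20.02% and 41.9% in Che-1-labelled replicates 1, 2 and 3. The share of Mxi1 was 12.3%, 10.2% and 10.6% and then 3.28%, 5.12% and 10.1%. Mxd3 made up 14.3%, 10.3% and 11.5% among the control libraries and 34.2%, 27.1% and 13.2% in the others. The share of Mxd4 was 13.8%, 23.8% and 23.0% and then 31.0%, 28.7% and 22.2%. Of these 5, Mxd1 held the highest share in every control library and in Che-1-labelled replicate 3, Mxd3 in Che-1-labelled replicate 1 and Mxd4 in replicate 2. Mga, left out of these shares, had means per kilobase of 288 in the control and 748 in the Che-1-labelled libraries, above those of each of the 5. The shares of Mnt, from 12.7% to 19.01%, overlapped between the groups. Che-1-labelled replicate 3 was near the control libraries in the shares of the 4 MXD genes, as in the cell division and neutrophil markers given above. Its share of Mnt (12.7%) was below that of every control library. Its neutrophil marker sum (RPM 905) was just above the highest control value (899.7). Its germinal centre, plasma cell, red cell, mature B cell and monocyte marker sums lay outside the control range too. The part of cell make-up in these shares was not tested.

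**Figure D4:**
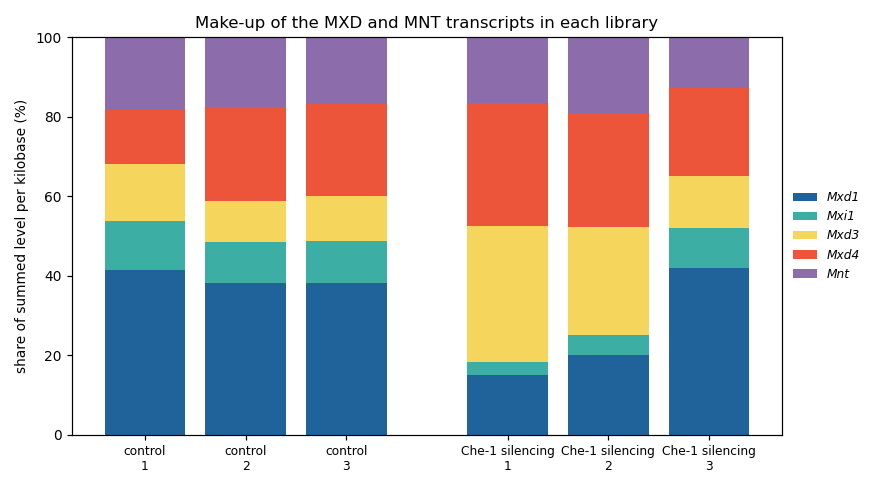
Share (%) of Mxd1, Mxi1, Mxd3, Mxd4 and Mnt in their summed level per kilobase of exon, as 1 stacked bar for each library. Mxd1 and Mxi1 shrink and Mxd3 and Mxd4 grow in Che-1-labelled replicates 1 and 2. Replicate 3 is near the control libraries except in Mnt, whose share is lowest there.

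The genes around the network were read from lists chosen by role. The corepressors that MXD proteins and MNT recruit were higher per spike-in in 13 of 13 tested members, with a median relative difference of 0.36 beside 0.015 over all genes. Rbbp7, a histone-binding subunit, stood at 1582 ± 642 and 12280.0 ± 8341 normalized counts (SD, n = 3 each; relative difference 1.19, SE 0.33, limma adjusted p = 0.0839), and the SIN3 subunits Sap30, Ing2 and Sin3b had relative differences of 0.91, 0.51 and 0.36. Of the polycomb proteins that work with MGA 9 of 9 were higher per spike-in (relative median 0.25), among them the chromatin reader Cbx3 (relative difference 0.98), Yaf2 (0.91), the E2F partner Tfdp1 (1.30) and Rybp (0.25). Of the coactivators of MYC 12 of 13 were higher per spike-in (relative median 0.18), with the ATPases Ruvbl1 and Ruvbl2 at 0.95 and 1.02, the actin-like subunit Actl6a at 0.76 and Zbtb17, the MIZ-1 protein through which MYC represses genes, at 0.40. None of these passed on the relative scale, and 66.7% of all genes were called higher per spike-in; whether the lists differ from that share was not tested. Without Che-1-labelled replicate 3, 9 of 13 corepressors, 5 of 9 polycomb proteins and 6 of 13 coactivators were higher on the relative scale and 0 lower, where 27.8% of all genes were higher and 25.2% lower.

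Genes that set the stability and the transcription of MYC showed both directions. Of 11 tested genes of MYC protein turnover 10 were higher per spike-in, where 66.7% of all genes were. Their relative median was 0.37, beside 0.015 over all genes. Fbxw7, the ubiquitin ligase subunit that marks MYC for destruction, had 1249, 918 and 1023 normalized counts among the control libraries and 6800.48, 12290.1 and 2749 in the others. Its groups did not overlap on either scale (relative difference 1.01, SE 0.25, limma adjusted p = 0.0776). C330027C09Rik, whose product CIP2A shields MYC from dephosphorylation, and Set had relative differences of 1.32 and 0.87, and Btrc, another ubiquitin ligase subunit, -0.91 (limma adjusted p = 0.135). Of 12 regulators of Myc transcription 11 were higher per spike-in, against the same 66.7% of all genes (relative median 0.37). The exception, Notch1, a receptor that activates Myc in lymphoid cells, had 1554 to 1815 normalized counts among the control libraries and 1678 to 3131 in the others, and lay below every control library relative to the median gene (-1.11, SE 0.30, limma adjusted p = 0.0834). The nucleic acid binding proteins Cnbp and Hnrnpk and the WNT effector Ctnnb1 had relative differences of 0.59, 0.76 and 0.46. Neither list had a gene past the threshold on the relative scale. On that scale 2 of the 11 turnover genes lay above every control library and 0 below. Of the 12 regulators 4 lay above and 1 below, where 20.5% and 19.7% of all genes did. Without Che-1-labelled replicate 3, 8 of the turnover genes were higher and 1 lower, and 8 of the regulators were higher and 2 lower. Of all genes 27.8% were higher and 25.2% lower in that fit. Whether the lists differ from these shares was not tested.

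Genes that MYC is known to activate had mostly positive relative differences, where that of Myc itself was 0.11. Of 35 such genes 33 were tested and 32 were higher per spike-in, where 66.7% of all genes were. On the relative scale 0 passed, with a relative median of 0.54 beside 0.015 over all genes. Without Che-1-labelled replicate 3 the list counted 20 higher and 1 lower on the relative scale, where 27.8% of all genes were higher and 25.2% lower. The median over the list, each gene against its control mean, was 0.77 and 0.74 in Che-1-labelled replicates 1 and 2 and 0.10 in replicate 3, and control replicate 1 stood at 0.38. The cell division markers were ordered alike (1.79, 1.55 and 0.24, with 0.72 in control replicate 1), and their part in the list was not tested. Ldha, the lactate dehydrogenase subunit, stood at 3360, 1598 and 1851 normalized counts among the control libraries and at 24548.1, 32313.4 and 5743 in the others (relative difference 1.42, SE 0.39, limma adjusted p = 0.0840). The nucleoside diphosphate kinase Nme2, the mitochondrial chaperonin subunit Hspe1 and the DNA repair enzyme Apex1 had relative differences of 0.87, 0.75 and 0.96, each without overlap between the groups. On the relative scale 8 of the 33 tested genes lay above every control library and 1 below. Of all genes 20.5% lay above and 19.7% below, and whether the list differs from these shares was not tested. The transferrin receptor Tfrc was the tested gene of this list that did not pass per spike-in, and its relative levels lay below the control libraries (-0.75, SE 0.49, limma adjusted p = 0.291). It was named after its values were seen.

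Genes that MYC is known to repress had no common direction. Of 12 tested 8 were higher per spike-in, near the share of all genes (66.7%). The relative median was 0.13, beside 0.015 over all genes. Ndrg2 stood at 138, 147 and 188 normalized counts among the control libraries and at 119.7, 214 and 134 in the others, a relative difference of -1.58 (SE 0.34, limma adjusted p = 0.0731). Cebpa, a factor of myeloid maturation, went from 235, 228 and 236 to 1580.44, 2096 and 794 (relative 1.03, SE 0.23, limma adjusted p = 0.0731). The cell cycle inhibitors Cdkn1a and Cdkn2c had relative differences of 1.38 and 0.67. None of the 12 passed on the relative scale. Without Che-1-labelled replicate 3, 4 were higher and 3 lower on that scale and the median was -0.038. Of all genes 27.8% were higher and 25.2% lower in that fit, with a median of 0.026.

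**Figure D5:**
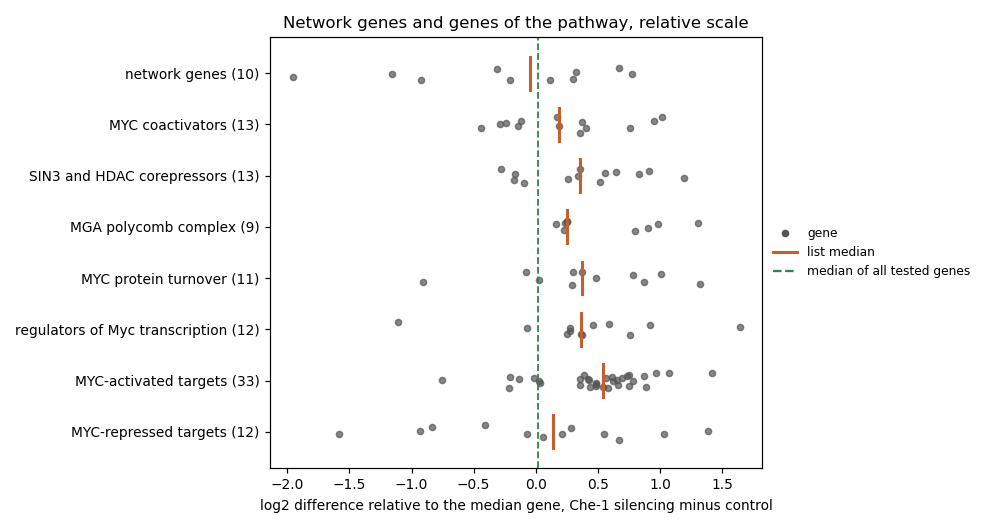
Log2 difference relative to the median gene (Che-1 silencing minus control) for each tested gene of the network and of 7 lists of its pathway, with the list median and the median of all genes tested. The activated targets have the highest list median, 0.54, and the network genes straddle 0 with a median of -0.05.

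Across the 6 libraries the genes whose relative levels ran closest to Myc, out of 7059 better-expressed genes compared, were Setd8, a histone methyltransferase, Csda, a cold shock domain protein, Noc2l, a nucleolar protein, Lrwd1, an origin-binding protein, and Pim1, a kinase known to cooperate with MYC in lymphoma. The measure was the root mean square difference of centred log2 levels, which was 0.06 for Setd8 and 0.08 for Pim1 and had a median of 0.40 over the genes compared. Pim1 had relative levels of 2.85, 2.09 and 2.02 among the control libraries and 2.48, 2.40 and 2.10 in the others. Among the network genes Mnt ran closest to Myc (0.31), followed by Mlx (0.36), Max (0.40) and Mga (0.41), and Mycn was furthest (1.56). With 6 libraries in 2 groups this describes shared level patterns and nothing more.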

How the data were processed

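RNA of bone marrow was measured by stranded sequencing of ribosome-depleted total RNA, per the labels' protocols. The submitters' processing notes name TopHat, Cufflinks, Cuffdiff and HTSeq with build mm9, without versions. The authors deposited raw counts of 92 ERCC spike-ins with 5 summary rows, which held 0.0434% to 0.221% of a library's reads there. They also deposited a gene table of group means of counts divided by spike-in size factors (a signal), with the ratio (fold) of the means, its log2 value and p-values, per the file headers.

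Counts per library were solved from the group means with size factors over 72 rows of the spike-in table (70 spike-ins and 2 summary rows). All 4739 control and 3330 Che-1 silencing means above 0 and below 50 matched exactly 1 set of 3 whole counts, within a relative 1e-15 plus 0.55 of the last digit. With factors from spike-ins alone 0 did. In all 17076 genes (99.4%) were recovered and 97 of high level were not. The planned tests took values per library, which were these.

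limma 3.58.1 (R 4.3.3; mean trend) was fitted to log2(normalized count + 1) of 14604 genes with a mean of at least 10, Benjamini-Hochberg adjusted over all of them, threshold 0.05. Differences on this scale understate changes of low genes. The prior degrees of freedom were infinite on the spike-in scale and 2.42 on the relative scale, on which all libraries share 1 median log2 level. edgeR 4.0.16 and DESeq2 1.42.0 on recovered counts, other pseudocounts, minimum means, scalings and left-out libraries were alternatives. The fits were checked on simulated data. Replicate numbers were not taken as pairs in the main fit. Deviations of equal numbers correlated at 0.17, -0.15 and 0.18, and those of unequal numbers at -0.21 to 0.18. With 3 libraries in each group these correlations cannot show whether the samples were paired. Depth limits low genes most.

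The network genes, lists and markers were chosen with earlier results of these data known. Named were the network genes, Aatf, 3 further network genes, up to 4 genes with the lowest relative p in each list and the 5 nearest to Myc. Of 171 list entries 1, Trac, had no row in the table used here.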

Additional observations from a re-analysis of the deposited data

How the results depend on the processing

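Of the differences of single network genes under all alternatives, 125 of those on the spike-in scale kept direction and side of the threshold, 33 lost the call and 1 turned, and on the relative scale 157 kept both, 8 gained a call and 4 turned. Called genes on the spike-in scale (7 of the network and 9854 of all) numbered 0 and 4 with no spread borrowed across genes, 2 and 3506 with control replicates 2 and 3 summed, and 2 to 7 and 3276 to 11246 with each library left out. On the relative scale (0 and 4) they numbered 2 and 3966 by DESeq2 and 0 to 6 and 4 to 7712 with each library left out, the highest without Che-1-labelled replicate 3. Without control replicate 1, 98 of all genes passed. All genes called were 23 without a minimum mean, 24 with no spread borrowed across genes and 7 with total count scaling. The relative difference of Myc turned to -0.057 with total count scaling and to -0.039 with control replicates 2 and 3 summed, and ran from -0.061 (without control replicate 3) to 0.43 (without control replicate 1), with -0.020 without control replicate 2. The spike-in difference of Mycn ran from -0.81 (without Che-1-labelled replicate 3) to 0.019 (without Che-1-labelled replicate 1). With the replicate number as a block 5 network genes (Myc, Max, Mlx, Mxd3 and Mxd4) and 6802 of all passed on the spike-in scale and 0 and 5 on the relative scale. Where a value moved, the cause was not tested. Low read counts, as of Mycn, limit precision most.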
